A study of Homo sapiens with 4 samples.

Results

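The EGF receptor gene EGFR, 5 genes for ligands of its receptor family (HBEGF, TGFA, NRG1, AREG and EREG) and ERRFI1, which encodes an inhibitor of the receptor, were followed in AC16 cells over a course of doxorubicin. The 7 genes were chosen by name, with earlier results of these data known, from the 57891 genes with annotated transcripts in the deposited table. All 7 were found. The AC16 line, labelled as cardiomyocytes, is an established human line that came from fusion of ventricular cells of the adult heart with a transformed fibroblast. The groups were untreated cells (0 min) and cells given 10 nM doxorubicin, an anthracycline that traps topoisomerase II on DNA, for 10, 30 or 360 min. Each time is 1 library of poly(A) RNA. Replicates are therefore lacking, and differences are given without p-values. The drug was given in new, serum-free medium after a rinse, and for the untreated cells the labels record neither step nor its absence. Drug, new medium and serum withdrawal cannot be told apart in any comparison with 0 min.

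EGF family ligands are made as membrane-anchored precursors. Metalloproteases such as ADAM17 cut them from the cell surface, and the freed ligand binds receptors of the ERBB family, which pair, phosphorylate one another and signal through the RAS-ERK and PI3K pathways. HB-EGF, TGF-alpha, amphiregulin (AREG) and epiregulin (EREG) bind the EGF receptor, while neuregulin 1 (NRG1) binds ERBB3 and ERBB4. In the heart, neuregulin signalling through ERBB4 and ERBB2 is known for its part in cardiomyocyte growth and survival. ERRFI1, also called MIG6, binds the kinase domain of the EGF receptor and is itself induced by growth factor signalling, which makes it a feedback inhibitor.

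The libraries held 55156612 to 56875881 deposited counts, worth about 13789153 to 14218970 read pairs if a pair is taken as 4 counts. Levels are in CPM, the usual unit in which a gene's counts are scaled by the library's total. The range after a level is a 95% exact Poisson interval and the range after a ratio a 95% exact (Clopper-Pearson) interval, and both cover counting error only. The size rule asked for a ratio of 2-fold or larger whose interval left out 1, in genes that reached 5 CPM in either library. The 10 min library stood apart, with 14.5% of 11892 compared genes past the rule against 0 min, where 6.80% of 11533 passed at 30 min and 6.59% of 11511 at 360 min. Of 13 cardiomyocyte markers, MYBPC3 and PLN had 0 counts in all 4 libraries, TNNT2, MYH6, MYH7 and ACTN2 stayed below 1 CPM, and 4 (TTN, RYR2, NKX2-5 and NPPB) reached 5 CPM. Fibroblast and matrix markers summed to 8897 to 13776 CPM. Of these 8 genes, COL1A1, COL1A2, FN1, VIM and PDGFRB reached 5 CPM, while COL3A1, THY1 and POSTN stayed below 1 CPM. In a bulk library, fewer cells of a type and less RNA per cell cannot be told apart.

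The promoters of 4 genes are shown because HBEGF and ERRFI1 passed the size rule together at 30 min, while AREG and EREG had no counts at any time. Each window runs from 250 bases before to 50 after the RefSeq start site (GRCh38.p14). HBEGF lies at chr5:140346554-140346853 on the minus strand, ERRFI1 at chr1:8026260-8026559 on the minus strand, AREG at chr4:74444886-74445185 and EREG at chr4:74364895-74365194, both on the plus strand. Capitals mark matches, on either strand, to the motifs searched: AP-1 (TGANTCA), the cAMP response element (TGACGTCA), the EGR site (GCGNGGGCG), the GC box (GGGCGG), the TATA box (TATAAA) and the CArG box. EGR sites and GC boxes can share letters.
HBEGF: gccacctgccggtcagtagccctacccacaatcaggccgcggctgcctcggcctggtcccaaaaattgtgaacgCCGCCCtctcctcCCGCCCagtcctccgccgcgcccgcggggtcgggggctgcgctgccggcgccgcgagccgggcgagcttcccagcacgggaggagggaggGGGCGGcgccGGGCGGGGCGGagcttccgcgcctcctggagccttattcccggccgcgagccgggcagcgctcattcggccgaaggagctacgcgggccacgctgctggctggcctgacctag
ERRFI1: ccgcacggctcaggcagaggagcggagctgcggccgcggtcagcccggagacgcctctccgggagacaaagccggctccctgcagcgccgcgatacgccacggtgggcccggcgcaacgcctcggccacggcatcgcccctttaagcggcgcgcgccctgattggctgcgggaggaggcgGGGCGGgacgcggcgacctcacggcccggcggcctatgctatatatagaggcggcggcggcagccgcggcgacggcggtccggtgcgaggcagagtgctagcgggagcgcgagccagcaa
AREG: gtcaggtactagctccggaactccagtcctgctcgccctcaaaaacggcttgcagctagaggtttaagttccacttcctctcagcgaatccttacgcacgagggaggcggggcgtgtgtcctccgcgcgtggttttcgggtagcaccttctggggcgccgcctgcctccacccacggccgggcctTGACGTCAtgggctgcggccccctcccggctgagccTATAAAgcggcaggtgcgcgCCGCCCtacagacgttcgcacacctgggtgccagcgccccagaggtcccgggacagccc
EREG: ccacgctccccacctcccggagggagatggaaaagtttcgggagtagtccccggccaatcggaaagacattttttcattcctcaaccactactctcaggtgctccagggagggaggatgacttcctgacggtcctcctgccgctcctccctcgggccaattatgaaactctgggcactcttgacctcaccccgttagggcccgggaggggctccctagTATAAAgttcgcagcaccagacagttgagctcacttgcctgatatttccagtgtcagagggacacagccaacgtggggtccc

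HBEGF held 5 matches to the GC box, of which the pair at -63 and -58 from the start site overlap, and ERRFI1 held 1, at -70. Only the exact letters TATAAA counted as a TATA box, so the run tatatata in the ERRFI1 window is not marked. AREG held a cAMP response element at -65, a TATA box at -29 and a GC box at -9. EREG held a TATA box at -32 and no other match. Of 35116 promoters of the same length, 45.0% held the GC box, 11.5% the TATA box and 1.85% the cAMP response element. AP-1 (7.71%), EGR (9.43%) and CArG (1.29%) letters were not in these 4 windows. The window at the first EGFR start held 3 GC boxes, and the window at a second, internal EGFR start (chr7:55109589-55109888) held 2 AP-1 matches, at -232 and -136. A match is a run of letters and not a measured site.

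EGFR, the receptor (ENSG00000146648, chromosome 7, 55019021 to 55211628, GRCh38 with GENCODE 29), stood at 187 CPM (180 to 195) at 0 min, 203 CPM (196 to 211) at 10 min, 187 CPM (180 to 195) at 30 min and 166 CPM (159 to 173) at 360 min. Its level was highest at 10 min and lowest at 360 min, and the intervals at 0 and 30 min covered each other. None of these differences reached 2-fold: the ratio to 0 min was 1.09 (1.03 to 1.15) at 10 min, 1.00 (0.947 to 1.06) at 30 min and 0.886 (0.838 to 0.937) at 360 min. Per length, EGFR held 69.4 to 87.5 TPM, a unit that divides counts by transcript length before scaling to the library.

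HBEGF encodes heparin-binding EGF-like growth factor (ENSG00000113070, chromosome 5, 140332843 to 140346631). It stood at 39.2 CPM (36.1 to 42.6) at 0 min, 39.4 CPM (36.2 to 42.9) at 10 min, 97.7 CPM (92.6 to 103) at 30 min and 54.4 CPM (50.6 to 58.5) at 360 min. The 30 min library was above the 3 others with no overlap of intervals, and the 0 and 10 min libraries could not be told apart at this depth. HBEGF was 2.49-fold (2.25 to 2.75) higher at 30 min than at 0 min and 2.48-fold (2.24 to 2.74) higher than at 10 min, past the size rule in both. At 360 min it stood at a ratio of 1.39 (1.24 to 1.55) to 0 min and 0.557 (0.509 to 0.610) to 30 min, neither past the rule. Only 2.13% of compared genes had a larger ratio at 30 min against 0 min. Beside this, the natriuretic peptide gene NPPB stood at 37.1 CPM at 0 min and 122 CPM at 30 min, and the 13 cardiomyocyte markers summed to 84.4 and 172 CPM. Most of the difference in that sum was NPPB: NKX2-5 stood at 19.0 and 24.1 CPM, TTN at 15.97 and 11.8 CPM and RYR2 at 9.41 and 9.21 CPM. The part of these markers in the HBEGF value was not tested.

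ERRFI1 (ENSG00000116285, chromosome 1, 8004404 to 8026308) stood at 148 CPM (142 to 154) at 0 min, 335 CPM (326 to 345) at 10 min, 302 CPM (293 to 311) at 30 min and 207 CPM (199 to 214) at 360 min. All 3 treated libraries lay above the untreated one, and no 2 of the 4 intervals overlapped. It was 2.27-fold (2.15 to 2.39) higher at 10 min and 2.04-fold (1.94 to 2.15) higher at 30 min, past the size rule at both, and stood at a ratio of 1.40 (1.32 to 1.48) at 360 min. Of compared genes 5.52% had a larger ratio at 10 min and 3.35% at 30 min. In the 10 min library, which stood apart, CD68 was at 56.2 CPM against 29.3 CPM at 0 min. It was the only 1 of 6 immune markers to reach 5 CPM, and CD14 had 0 counts in all 4 libraries. Fibroblast and matrix markers summed to 13776 CPM at 10 min against 10522 CPM at 0 min. The part of these genes in the ERRFI1 value was not tested. The 30 min call was close to the 2-fold line: with its most counted transcript alone the log2 ratio was 0.95, short of the rule. Set against the median of the other 3 libraries in place of the 0 min library, ERRFI1 had a log2 ratio of 0.70 at 10 min and 0.55 at 30 min, and neither passed. That median was the 360 min library at both times, which itself stood above 0 min. These values are therefore ratios between treated libraries and say nothing of the difference from untreated cells.

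ERRFI1 was past the rule in the 10 min library, in which HBEGF stood at a ratio of 1.01 (0.892 to 1.13). At 30 min against 10 min ERRFI1 stood at 0.901 (0.864 to 0.939), while HBEGF was past the rule. The plot of levels by library shows the time at which each was highest.

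**Figure D1:**
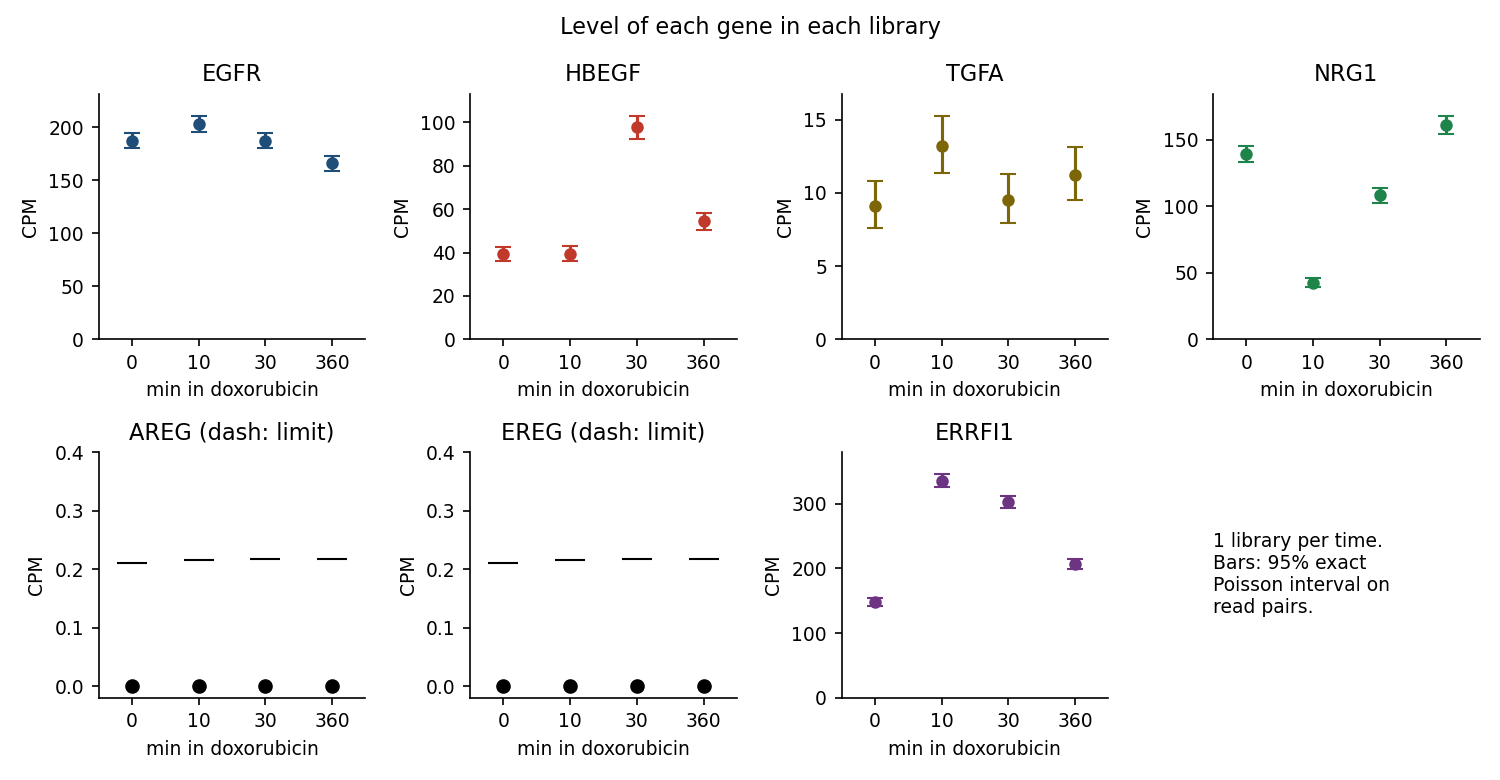
Level of each of the 7 genes (CPM, linear axes from 0) in the 4 libraries at 0, 10, 30 and 360 min, with 95% exact Poisson intervals. HBEGF is highest at 30 min (97.7 CPM), ERRFI1 at 10 min (335 CPM) and NRG1 lowest at 10 min (42.3 CPM), while AREG and EREG have 0 counts, with dashes at the level that 0 counts still allow.

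NRG1 encodes neuregulin 1 (ENSG00000157168, chromosome 8, 31639386 to 32767959). It stood at 139 CPM (133 to 146) at 0 min, 42.3 CPM (39.0 to 45.9) at 10 min, 108 CPM (103 to 114) at 30 min and 161 CPM (155 to 168) at 360 min. The 10 min library was far below the 3 others and the 360 min library above them. NRG1 was 3.29-fold (3.003 to 3.62) lower at 10 min than at 0 min, past the rule, and 98.3% of compared genes had a larger ratio. It stood at a ratio of 0.777 (0.726 to 0.831) at 30 min and 1.16 (1.09 to 1.23) at 360 min, both short of the rule, and was 2.56-fold (2.32 to 2.82) higher at 30 min than at 10 min. The low value rests on the 10 min library, in which fibroblast and matrix markers summed to 13776 CPM against 10522 CPM at 0 min. The 6 immune markers summed to 57.6 against 30.5 CPM, of which CD68, alone in reaching 5 CPM, made 56.2 and 29.3 CPM. The part of these in the NRG1 value was not tested.

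TGFA encodes transforming growth factor alpha (ENSG00000163235, chromosome 2, 70447280 to 70554193) and was the lowest of the detected members. It stood at 9.13 CPM (7.62 to 10.8) at 0 min, 13.2 CPM (11.4 to 15.3) at 10 min, 9.50 CPM (7.94 to 11.3) at 30 min and 11.2 CPM (9.54 to 13.2) at 360 min. The 10 min interval lay above those at 0 and 30 min, and the 360 min interval overlapped all 3 others. Its ratio to 0 min was 1.45 (1.15 to 1.83) at 10 min, 1.04 (0.810 to 1.34) at 30 min and 1.23 (0.969 to 1.57) at 360 min, none past the rule, and 0.719 (0.571 to 0.905) at 30 min against 10 min.

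AREG (ENSG00000109321, chromosome 4, 74445134 to 74455009) and EREG (ENSG00000124882, chromosome 4, 74365143 to 74388751) are neighbours on one strand. Each has 3 annotated transcripts in the table, and all 6 had 0 counts in all 4 libraries. A count of 0 allows up to 0.211 CPM at 0 min and up to 0.218 CPM at 360 min, taking a limit of 3 read pairs. Both genes keep rows of their own in the deposited gene table, with no assembled transcript model in them. No ratio can be given for either.

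Across the 7 genes, 5 could be compared. At 10 min 1 was higher (ERRFI1) and 1 lower (NRG1), where 7.69% of all compared genes were higher and 6.85% lower, 14.5% in all. At 30 min 2 were higher (HBEGF and ERRFI1) and 0 lower, against a background of 3.55% higher and 3.25% lower, 6.80% in all. At 360 min 0 of 5 passed, against 3.26% higher and 3.34% lower, 6.59% in all. At 30 min against 10 min 2 were higher (HBEGF and NRG1), against 6.86% higher and 7.54% lower, 14.4% in all. At 360 min against 30 min 0 of 5 passed, against 3.26% higher and 3.49% lower, 6.75% in all. The median log2 ratio to 0 min of the 5 genes was 0.12, 0.06 and 0.30 at 10, 30 and 360 min, where that of all compared genes was -0.04, -0.01 and 0.01. With 5 genes, chosen with earlier results of these data known, these shares and medians are descriptions, and the 3 comparisons share the 0 min library.

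**Figure D2:**
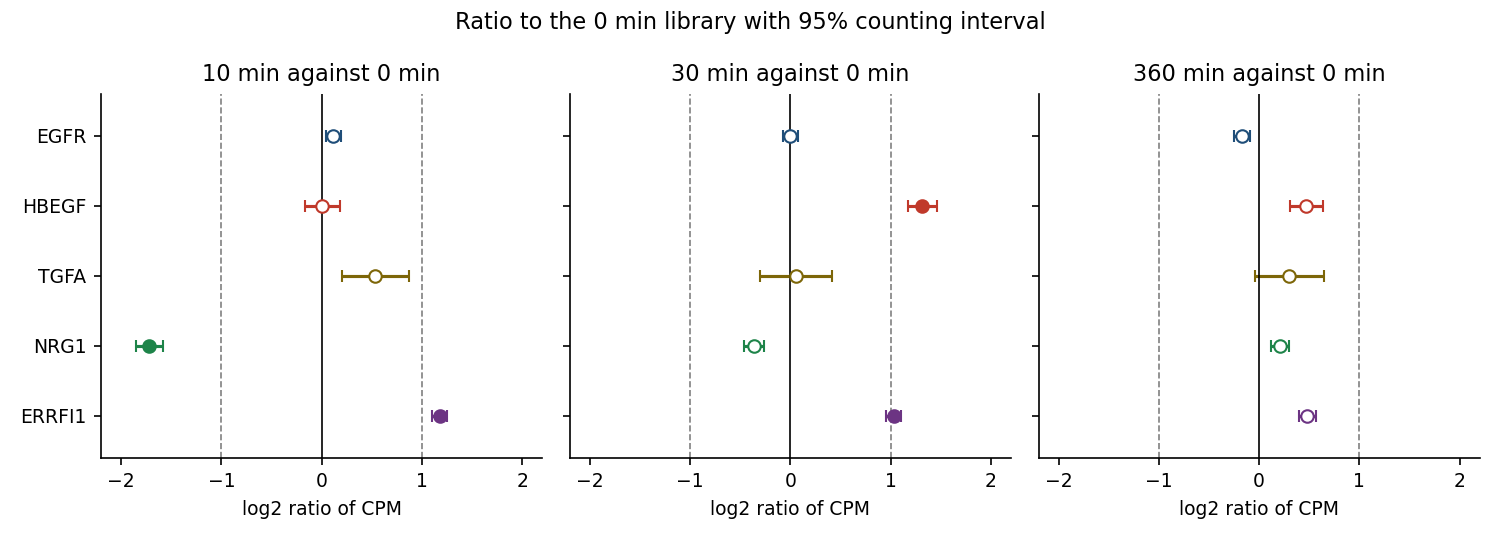
Log2 ratio of CPM to the 0 min library for the 5 detected genes at 10, 30 and 360 min, with 95% counting intervals; filled points passed the size rule and dashed lines mark 2-fold. NRG1 is lower at 10 min (log2 ratio -1.72), ERRFI1 higher at 10 and 30 min (1.18 and 1.03) and HBEGF higher at 30 min (1.32), and no point is filled at 360 min.

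**Figure D3:**
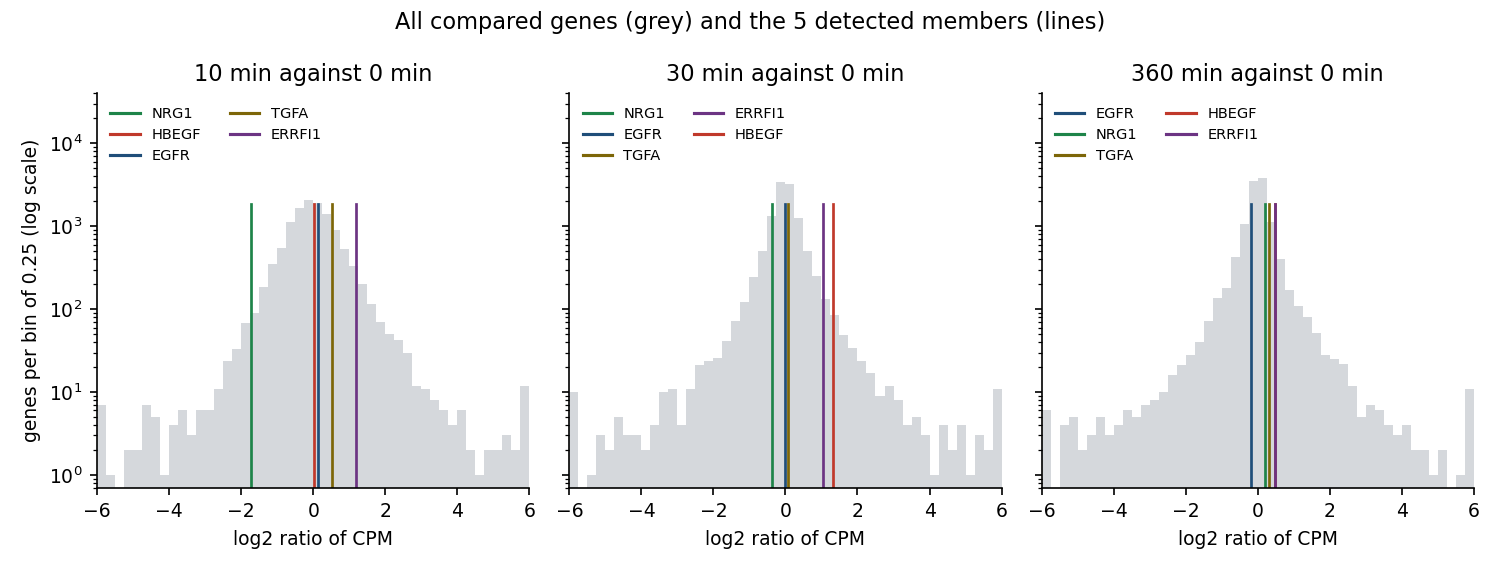
Histograms of the log2 ratio of CPM to the 0 min library for all compared genes (11892 at 10 min, 11533 at 30 min and 11511 at 360 min; log vertical axis, values beyond 6 placed in the end bins), with a line for each detected member. The 10 min distribution is the widest, and HBEGF and ERRFI1 lie in the right flank at 30 min.

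Per length, the order of levels changed between the libraries. At 0 min ERRFI1 (124 TPM, 119 to 130) was followed by NRG1 (81.1 TPM, 77.6 to 84.7), EGFR (74.4 TPM, 71.6 to 77.3), HBEGF (38.3 TPM) and TGFA (7.56 TPM). NRG1 and EGFR were the closest neighbours, with intervals that did not overlap. At 10 min NRG1 (27.9 TPM) was below HBEGF (39.3 TPM), and at 30 min HBEGF (96.4 TPM, 91.3 to 102) was above EGFR (79.2 TPM, 76.2 to 82.3) and NRG1 (63.2 TPM). At 360 min the order was that of 0 min again, with ERRFI1 at 194 TPM, NRG1 at 92.3 TPM, EGFR at 69.4 TPM, HBEGF at 52.8 TPM and TGFA at 8.23 TPM. ERRFI1 was first and TGFA last of the detected genes in all 4 libraries. These intervals carry counting error only, not the uncertainty of sharing counts among transcript models.

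The transcript models behind the totals were compared next, since counts were shared among overlapping models. None of the 7 loci held an assembled, unannotated model, so the annotated sum equals the whole locus for each of them.

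Most HBEGF counts lay in the coding transcript HBEGF-201, which encodes 208 amino acids. Its level was 38.7, 38.9, 94.4 and 54.0 CPM at 0, 10, 30 and 360 min. The 2 retained-intron models together stood at 0.527, 0.594, 3.35 and 0.435 CPM, so they too were highest at 30 min. Their ratio at 30 min was 6.34 (2.91 to 16.1), against 2.44 (2.204 to 2.70) for the coding transcript, and the intervals did not overlap. As a share of HBEGF counts they made 1.34% (0.563 to 2.69) at 0 min, 1.505% (0.662 to 2.91) at 10 min, 3.43% (2.52 to 4.54) at 30 min and 0.799% (0.294 to 1.73) at 360 min. The shares at 0 and 30 min have intervals that overlap slightly, and these rest on 30 and 185 counts.

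In EGFR, the 3 models that encode 1091 to 1210 amino acids held 91.0%, 90.7%, 91.6% and 87.8% of counts at 0, 10, 30 and 360 min. EGFR-201, the full receptor of 1210 amino acids, stood at 149, 144, 129 and 114 CPM. EGFR-207 stood at 21.9, 40.3, 42.1 and 0.0544 CPM, and EGFR-206 was listed at 0 in the first 3 libraries and stood at 32.1 CPM at 360 min. These models overlap over most of their length, and the 360 min library carried one where the others carried the other. The 3 models together stood at 171, 184, 172 and 146 CPM. The short coding models, of 405 to 705 amino acids, correspond to forms of the receptor without the transmembrane segment and stood at 16.02, 18.4, 15.2 and 19.2 CPM. Their ratio to 0 min was 1.20 (1.002 to 1.44) at 360 min, against 0.855 (0.805 to 0.907) for the long models. The higher value came from EGFR-203 and EGFR-202, listed at 0 counts at 0 min and at 183 and 120 counts at 360 min. EGFR-204, the most counted short model, stood at 0.858 (0.704 to 1.04). The split of counts among these overlapping models is uncertain.

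The low NRG1 value at 10 min was spread over its models. Of 9 models with at least 10 read pairs in some library, 9 had a ratio below 1 at 10 min, from 0.141 to 0.942, and the interval lay below 1 for 6 of them. Counts were shared among overlapping models, so these are not 9 separate measurements. The leading model NRG1-202 (637 amino acids, start at 32548267) held 74.8% to 78.8% of counts and stood at a ratio of 0.291 (0.261 to 0.324). NRG1-220, which starts 3' of it at 32721833, stood at 0.161 (0.0907 to 0.271), and NRG1-201 at 0.465 (0.343 to 0.624). At 360 min NRG1-220 stood at 1.51 (1.17 to 1.95) and NRG1-201 at 0.730 (0.563 to 0.944), so the models did not move alike at that time.

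ERRFI1-201, which encodes 462 amino acids, held 92.2% and 94.4% of ERRFI1 counts at 0 and 10 min and 87.2% and 86.2% at 30 and 360 min. It stood at 136, 316, 263 and 178 CPM. The other models together stood at a ratio of 1.63 (1.34 to 1.997) at 10 min, 3.34 (2.80 to 4.00) at 30 min and 2.48 (2.06 to 2.99) at 360 min. Part of that is ERRFI1-203, a short model listed at 0 in the 0 and 10 min libraries and at 760 and 406 counts at 30 and 360 min. TGFA counts lay mostly in TGFA-201, which made 87.3% to 94.0% of them.

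**Figure D4:**
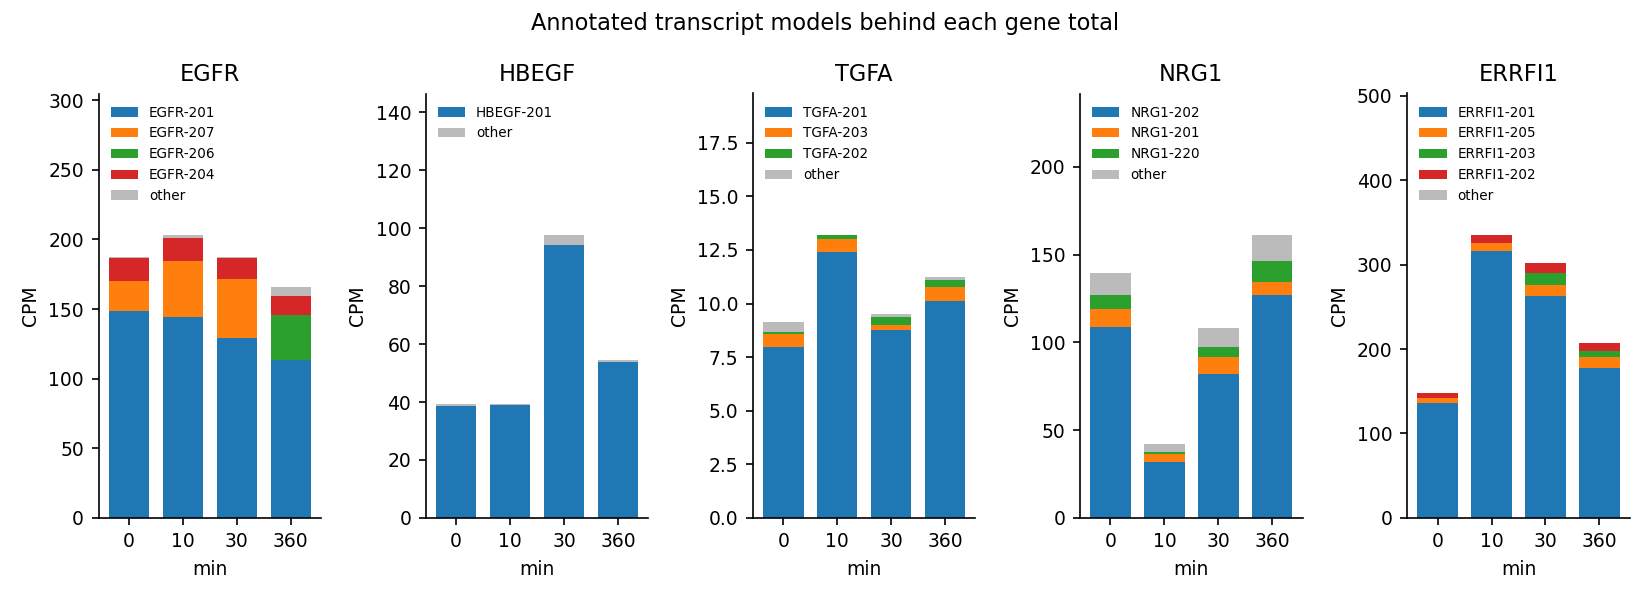
Level (CPM, stacked) of the annotated transcript models of EGFR, HBEGF, TGFA, NRG1 and ERRFI1 in the libraries at 0, 10, 30 and 360 min, with models under 4% of the gene in all libraries pooled as other. One model makes most of each total, and EGFR-206 appears at 360 min (32.1 CPM) where EGFR-207 is at 0.0544 CPM.

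The rest of the pathway was read from lists of receptors, ligands, shedding factors, receptor inhibitors and degradation factors, the RAS-ERK cascade and the PI3K arm, which hold 62 genes beside the members. With annotated transcripts summed, 3 of 53 compared genes were higher and 2 lower at 10 min, 2 and 4 of 51 at 30 min, and 1 and 5 of 51 at 360 min. Of all compared genes 14.5%, 6.80% and 6.59% passed at these times in either direction. Their median log2 ratios were 0.07, 0.01 and -0.06. When the whole locus was counted, assembled models included, 0 of 47, 0 of 46 and 0 of 46 genes passed in either direction, against 10.6%, 3.00% and 1.98% of all loci compared. The members hold no assembled models, so this count cannot differ from the annotated sum for them.

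Among receptors, ERBB2, the shared partner of the family, stood at 83.7, 75.8, 54.4 and 82.5 CPM. Its ratio of 0.650 (0.593 to 0.713) at 30 min became 1.14 (1.06 to 1.24) for the whole locus. ERBB3 stayed at 1.36 to 3.795 CPM and ERBB4 had 0 counts in all 4 libraries, so both receptors that bind neuregulin 1 were low or not detected. Of the other ligands EGF stood at 2.69 to 3.22 CPM and NRG2 and NRG4 below 2 CPM. EPGN and NRG3 had 0 counts in every library, and BTC had counts only at 360 min, at 0.109 CPM.

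In the shedding list, the protease gene ADAM17 stood at 70.4, 104, 76.8 and 66.7 CPM, with a ratio of 1.48 (1.37 to 1.61) at 10 min, short of the rule. RHBDF2, which encodes an inactive rhomboid that brings ADAM17 to the surface, was 2.07-fold (1.85 to 2.33) higher at 10 min and 3.44-fold lower at 360 min on annotated transcripts. For the whole locus these ratios were 1.70 (1.54 to 1.88) and 1.08 (0.965 to 1.20), and neither passed. Its relative RHBDF1 had the largest ratio of the list at 30 min, 1.45 (1.26 to 1.66), short of the rule.

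Among receptor inhibitors and degradation factors beside ERRFI1, EPS15, an endocytic adaptor, stood at ratios of 0.103, 0.0905 and 0.267 on annotated transcripts and 1.16, 0.949 and 0.813 for the whole locus. LRIG1, a transmembrane inhibitor of ERBB receptors, went from 0.215 to 0.886 at 360 min in the same way. The adaptor gene SH3KBP1 (3.16 at 30 min and 2.14 at 360 min) stood at 1.05 and 0.970 for the locus. The phosphatase genes PTPN1 (2.26 at 10 min) and PTPRJ (0.446 at 30 min) stood at 1.22 and 0.848. Of the 15 genes of this list compared by whole locus, ERRFI1 alone passed, at 10 and 30 min, and its locus count is its annotated sum.

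In the RAS-ERK cascade BRAF was past the rule at all 3 times on annotated transcripts (ratios of 0.362, 0.196 and 0.164), and the whole locus stood at 1.03, 0.958 and 0.972. HRAS had a ratio of 0.520 (0.447 to 0.604) at 10 min in both counts, just short of the rule. In the PI3K arm AKT1 (3.22 at 10 min and 2.61 at 30 min) stood at 0.917 and 1.19 for the locus, and PDPK1 (0.265 at 30 min and 0.151 at 360 min) at 1.01 and 0.893. The plot of both counts shows these genes spread along the horizontal axis.

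**Figure D5:**
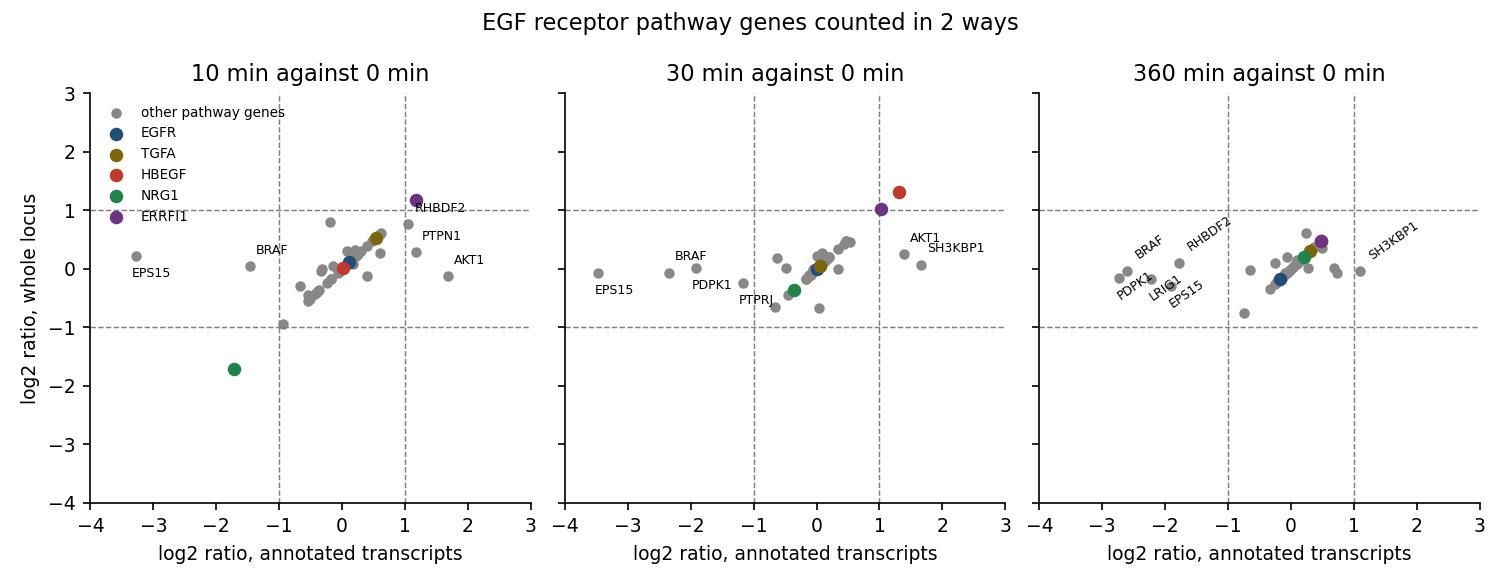
Log2 ratio to the 0 min library of EGF receptor pathway genes, from annotated transcripts (horizontal) and from the whole assembly locus (vertical), with dashed lines at 2-fold and names for genes past the rule on annotated transcripts. The members lie on the diagonal because their loci hold no assembled models, while BRAF, EPS15, PDPK1 and the other named genes lie within 2-fold on the vertical axis.

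Early genes known to respond to ERK signalling were also listed, and the activity of the receptor or of ERK was not measured. At 10 min 8 of 20 compared genes were higher and 0 lower (median log2 ratio 0.67), at 30 min 12 of 20 and 0 (1.36), and at 360 min 1 of 17 higher and 1 lower (0.25). Of all compared genes 7.69%, 3.55% and 3.26% were higher at these times, with medians of -0.04, -0.01 and 0.01. The list was drawn up with earlier results of these libraries known, so its counts are a description. The transcription factor gene EGR1 stood at 6.66, 85.9, 425 and 9.75 CPM and FOS at 0.404, 8.58, 24.2 and 0.381 CPM. SPRY4, a feedback inhibitor of receptor tyrosine kinase signalling, was 3.82-fold (2.56 to 5.86) higher at 10 min, 8.08-fold (5.56 to 12.1) at 30 min and 2.40-fold (1.56 to 3.77) at 360 min. ZFP36, which encodes an mRNA decay factor, was 3.68-fold (2.91 to 4.70) higher at 10 min, and the Krüppel-like factor gene KLF2 7.49-fold (5.501 to 10.4) at 30 min. The gene lower at 360 min was SPRED1, at a ratio of 0.193, which stood at 0.973 for the whole locus. HBEGF was highest at 30 min, as were EGR1, FOS, SPRY4 and KLF2, while ERRFI1 was highest at 10 min, as was ZFP36.

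The genes nearest to each member by the Euclidean distance of their 3 log2 ratios to 0 min, from 4 libraries, were found among 12111 others with at least 5 CPM in some library and counts in all. Nearest to HBEGF were GPT2, an alanine aminotransferase gene (distance 0.116; 42.6, 46.2, 103 and 59.3 CPM), SLC7A11, the cystine transporter gene (0.160; 91.1, 88.9, 208 and 118 CPM), and TMEM33 (0.170). Nearest to ERRFI1 were PDCD4, which encodes a translation inhibitor (0.128; 20.5, 45.5, 42.9 and 26.3 CPM), BTN3A3 (0.160) and TBC1D3L (0.175), a member of a family of near-identical copies and so uncertain. Nearest to NRG1 were the pseudogene SMG1P3 (0.107), uncertain because of near copies, DTL, which encodes an adaptor of a ubiquitin ligase active in S phase (0.165; 58.8, 19.5, 46.3 and 63.2 CPM), and NET1 (0.204). EGFR was closest to CAMK2G (0.0265), PPP2R5C (0.0266) and HOOK3 (0.0304), and TGFA to ZNF652 (0.0506), DECR2 (0.0587) and TMEM173 (0.0783). The distances are short for EGFR because genes with ratios near 1 are many, and a nearness over 4 libraries is a description only. All patterns are those of annotated sums. PDCD4, HOOK3, DECR2 and SMG1P3 were tied to no locus, and for CAMK2G and ZNF652 the whole locus differed from the sum.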

How the data were processed

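Poly(A) RNA from 4 libraries, 1 per time, was measured by sequencing. Per the labels' protocols, trypsin-EDTA freed the cells, Trizol purified the RNA, poly(dT) beads selected it and SmartScribe reverse transcriptase copied it. HISAT2, DESeq2 and GRCh38 are named per the submitters' processing notes. Which tool counted, on which annotation release and with or without strand, is not given in the sources used here. Estimated counts were deposited by the authors for loci and transcripts, without scaling. They are whole numbers, so rounding changed nothing.

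Of 215876 annotated transcripts in the table, 197268 matched GENCODE 29 and were summed per gene, without assembled models, which held 10.7% to 11.7% of counts. Sums were divided by the column totals (CPM). TPM used GENCODE 29 transcript lengths. Among 11832 low values (1 to 24) of loci without assembled models, 35.5% were multiples of 4, against 25% for an even spread. Intervals took 4 counts as 1 read pair. This is an assumption, since most low values were not multiples of 4, and another worth would change the interval widths. A library at 0 entered a ratio at 3 read pairs (12 counts). A locus was tied to a gene where its counts, less its own assembled models, equalled the gene's sum in all 4 libraries, with at least 20 counts in all; this tied 22091 of 31520 genes with counts. Exon overlap with other genes was below 10% for all 7 members.

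No model test (edgeR or DESeq2) was run on single libraries; edgeR 4.0.16 gave TMM factors and DESeq2 1.42.0 median-of-ratios factors as alternatives. R 4.3.3, Python 3.11.15, SciPy 1.17.1, numpy 2.4.6, pandas 2.3.3 and matplotlib 3.10.9 were used. The size rule was run on simulated counts with known ratios, drawn with counting error only. That run cannot show how the rule fares with variation between libraries. Named are all members, their transcripts with at least 10% of counts and others needed to account for totals, up to 4 genes of each list past the rule at each time or else the 1 with the largest ratio, and the 3 nearest genes by pattern. Genes outside that rule (ADAM17, HRAS, ERBB3 and ligands at low levels) were named after their values were seen. The members and lists were chosen with earlier results of these data known. The GC box was added to the motifs after the promoters had been searched with the others.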

Additional observations from a re-analysis of the deposited data

Results flagged for a closer look

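For 2 members the ratio to 0 min had counting intervals on opposite sides of 1 at different times; each is 1 library against the same 0 min library, and the difference between times was not tested. NRG1 stood at 0.304 at 10 min and 0.777 at 30 min, and at 1.16 at 360 min. EGFR stood at 1.09 at 10 min and 0.886 at 360 min.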

How the results depend on the processing

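No paired analysis was possible because each time has 1 library. The member calls at 10 min, at 30 min and at 30 against 10 min numbered 2 under TMM factors, median-of-ratios factors, a minimum of 1 CPM, no minimum, undivided counts, a 1.5-fold threshold and protein-coding transcripts alone, and 0 members passed at 360 min under each alternative run. Whole loci give the members the same values by construction. A lower minimum, or none, could not change a member call. Every detected member already reached the main minimum, and AREG and EREG had 0 counts. Undivided counts only narrow the intervals, and the detected members not called were short in size of ratio. A 1.5-fold threshold can add a call but cannot remove one. Among these runs only the scaling factors and the protein-coding sums could have removed a member call. With the median of the other 3 libraries as baseline 1 member passed at 10 min (NRG1) and 1 at 30 min (HBEGF). A median of 3 libraries is the value of 1 of them. It was the 0 min library for NRG1 and the 10 min library for HBEGF, so these passes repeat comparisons given above. With the leading transcript alone 1 passed at 30 min (HBEGF). At 1.5-fold 1 passed at 360 against 30 min (HBEGF, lower). No call changed sign, but some values short of the rule did. With the median baseline these were ERRFI1 at 360 min (log2 ratio -0.55), HBEGF at 10 min (-0.46) and TGFA at 30 min (-0.24). There the median was a treated library, at 30 min for ERRFI1 and at 360 min for HBEGF and TGFA. With its leading transcript EGFR did so at 10 min (-0.04) and at 30 min (-0.20, from a main value near 0.0). HBEGF at 10 min did so under TMM (-0.03) and median-of-ratios factors (-0.02), and EGFR at 30 min under the latter (-0.0035). The scalings moved member log2 ratios by at most 0.0444.

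The counts over all genes (1730, 784 and 759 at 10, 30 and 360 min) became 2953, 1474 and 1355 at 1 CPM, 3562, 1893 and 1706 with no minimum, 3986, 1836 and 1578 at 1.5-fold, and 1068, 293 and 192 for whole loci, where fewer genes were compared. Pathway genes beside the members, early genes included (13, 18 and 8), became 23 at 10 min and 16 at 360 min at 1.5-fold. For whole loci they became 8 and 1 at those times, and with the median baseline 13 at 360 min. The whole-locus calls were all early genes. They were 8 of 21 compared at 10 min, 14 of 21 at 30 min and 1 of 18 at 360 min. Of all loci compared 10.6%, 3.00% and 1.98% passed at these times. The cause of these shifts was not tested. The whole-locus counts of genes and pathway genes and the protein-coding sums were chosen after seeing the data. Depth limits AREG and EREG, which may lie below 0.211 CPM, and the HBEGF intron models, which rest on few read pairs.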
